A study of Homo sapiens with 12 samples.

Results

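Levels of 41 genes that code for PPAR-alpha, its classical targets and the enzymes of fatty acid oxidation were followed in HepG2 cells exposed to the herbicide 2,4-D. The genes were picked by symbol from the 60612 rows of the deposited count table, and each symbol matched 1 row. HepG2 is an established human liver cancer line that keeps many functions of hepatocytes, the main cells of the liver. 2,4-D is 2,4-dichlorophenoxyacetic acid, a synthetic auxin used to kill broad-leaved weeds. Every exposed culture received 0.001 µM 2,4-D, and RNA was taken after 10, 30 or 360 min, or at 0 min from cultures labelled untreated. Each of the 4 groups had 3 biological replicates, which gives 12 libraries. All of them come from the same cell line, and no untreated libraries of 10, 30 or 360 min were analysed here, so exposure and elapsed time cannot be told apart in a comparison with 0 min.

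PPAR-alpha is a nuclear receptor that binds fatty acids and their derivatives and pairs with a retinoid X receptor on DNA. In the liver it raises transcription of genes for uptake, activation and oxidation of fatty acids, above all in fasting. CPT1A and its partners carry long-chain fatty acids into mitochondria, where a cycle of dehydrogenases, hydratases and thiolases shortens them and passes electrons to the electron transfer flavoproteins. Peroxisomes shorten very long and branched chains with a separate set of enzymes. The acetyl-CoA that results can leave the liver as ketone bodies.

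Total counts ran from 29766148 to 83539763 per library, of which the 41 genes took 0.455% to 0.478%. Levels are given as CPM, the counts of a gene per 1000000 counts of a library after TMM scaling, with the mean ± SD over n = 3 libraries. CPM is a share of a library, so in bulk RNA fewer cells that express a gene and less RNA of it per cell cannot be told apart. Transcripts of the mitochondrial genome took 2.52% to 2.74% of the counts in 5 libraries, namely 2 of 360 min (replicates 1 and 2), 1 of 30 min (replicate 1) and 2 of 0 min (replicates 2 and 3). They took 3.55% to 4.39% in the 7 others, which include all of 10 min. All 9 markers of a hepatocyte line, among them ALB, APOB and HNF4A, were measured at 25.9 CPM or more. PTPRC and COL1A2, which define leukocytes and fibroblasts, were at 0 in every library, and 2 of the 9 markers of other cells reached a median of 1 CPM. The summed level of those 9 lay between 58.4 and 62.9 CPM at 360 min, against 50.0 to 57.3 CPM at 0 min, almost all of it ACTA2. The summed level of the 9 hepatocyte line markers was 31813 to 32939 CPM at 360 min, against 28453 to 30874 CPM at 0 min, without overlap. The part of both marker lists in the results was not tested. CYP3A4 and CYP2E1, oxidases of mature hepatocytes, stayed at or under 0.364 CPM each.

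After the filter on low counts, 39 of the 41 genes could be tested among 17779 genes. CYP4A11, a microsomal fatty acid omega-hydroxylase, had no count in any library. PDK4, the kinase that shuts off pyruvate dehydrogenase in fasting, had 0 counts in 11 libraries and 5 counts in 360 min replicate 3. A count of 0 allows up to 3 counts, which is 0.0359 to 0.101 CPM depending on the library and covers counting error only. Neither gene was given a fold change.

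Levels were compared between genes as CPM per kilobase of annotated exon. In untreated cells ECHS1, the short-chain enoyl-CoA hydratase, was highest with 137 ± 2.76 CPM per kilobase, followed by PLIN2, which coats lipid droplets, with 125 ± 6.36. The cytosolic fatty acid carrier FABP1 had 93.6 ± 1.50 CPM per kilobase, HADHA had 86.7 ± 2.78 and the very long chain dehydrogenase ACADVL had 82.7 ± 3.48. The lowest of the tested genes was ACSL1, a long-chain acyl-CoA synthetase, with 0.293 ± 0.049 CPM per kilobase. PPARGC1A, VNN1 and ANGPTL4 lay between 1.20 and 1.22 and did not differ beyond their spread. These lengths cover all annotated exons of a gene, so a gene with long unused exons comes out too low on this scale.

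**Figure D1:**
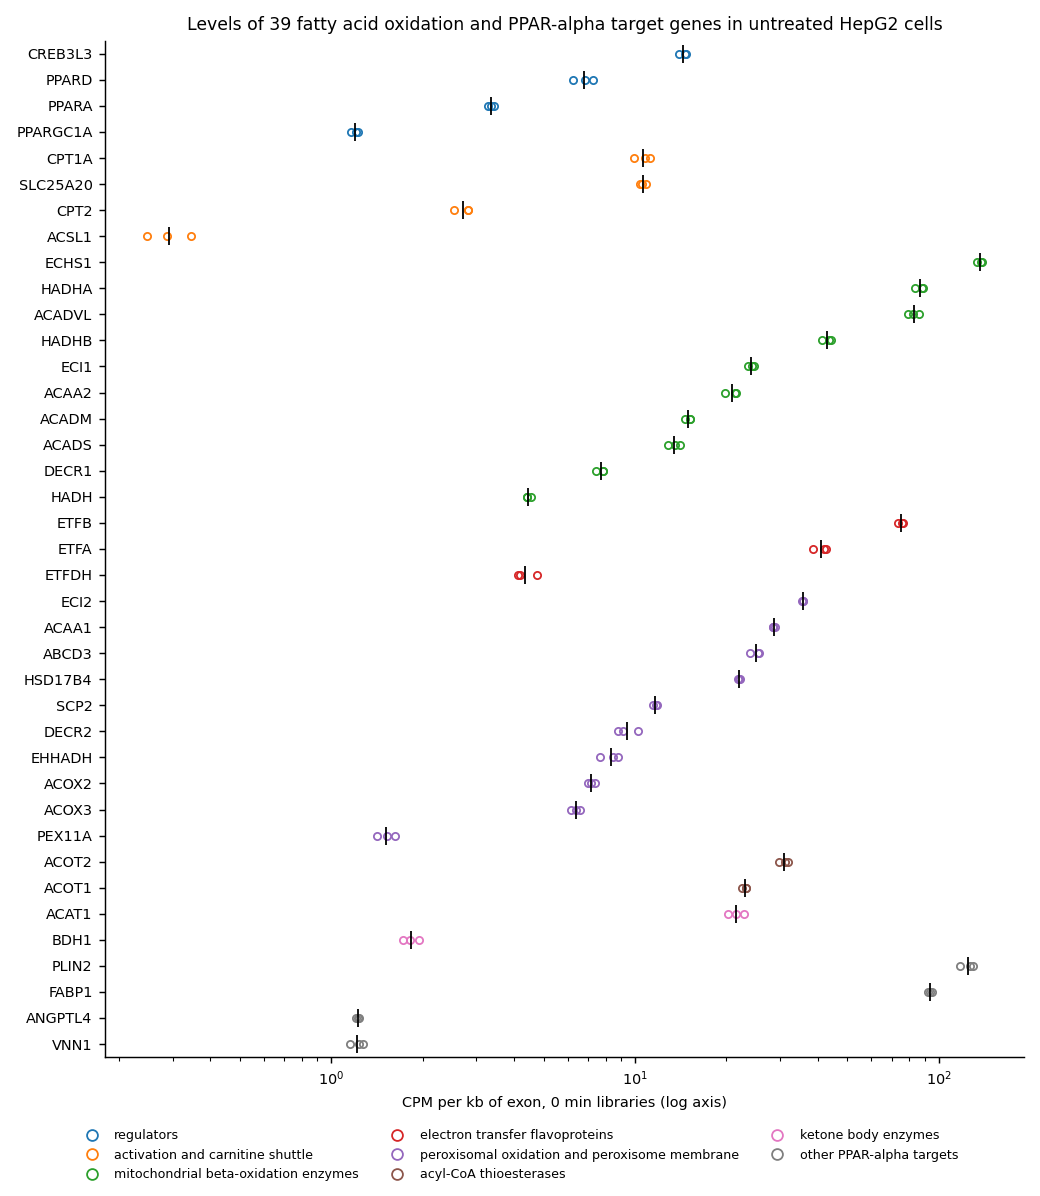
Levels of the 39 tested genes in the 3 untreated (0 min) libraries, in CPM per kilobase of exon on a log axis, with genes down the page by role. Circles are libraries and vertical bars are means; ECHS1 at 137 and ACSL1 at 0.293 mark the ends of the range.

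Promoter sequence was looked up in a RefSeq table (GRCh38.p14) for the stretch up to 250 bases before each listed transcript start, and 32 of the 41 genes had an entry. PPAR-alpha with its partner binds a direct repeat of AGGTCA spaced by 1 base. Written as AGGNCA, any base and AGGNCA, and searched on both strands, that repeat was found in 1 of the 32 promoters, CREB3L3, and in 0.267% of all 27305 promoters. A single AGGTCA, which that repeat can contain, was in CREB3L3 and FABP1, or 6.25% of the 32, and in 12.1% of all promoters. The other motifs were searched on both strands as well. A TATAAA on either strand was found in 4 of the 32 (ACADVL, ANGPTL4, PLIN2 and FABP1), which is 12.5%, and in 11.1% of all. That of ACADVL was found on the opposite strand, and that of FABP1 lies outside the stretch shown. A CCAAT box was in 21.9% of the 32 and in 33% of all, an E-box CACGTG in 6.25% and 6.49%, and a full cyclic AMP response element in 1, ACOX3, and in 1.77% of all. Sequences are shown for CREB3L3 and FABP1, which hold the matches, and for ANGPTL4, CPT1A and ABCD3, 3 genes whose levels changed at 360 min. Each is written in the direction of the gene, without bases inside annotated exons. The stretch of ANGPTL4 lies within the bounds of the annotated gene, between its exons. Capitals mark the direct repeat in CREB3L3, the AGGTCA on the opposite strand in FABP1 and the TATAAA of ANGPTL4.
CREB3L3 (chr19:4153381-4153600, plus strand): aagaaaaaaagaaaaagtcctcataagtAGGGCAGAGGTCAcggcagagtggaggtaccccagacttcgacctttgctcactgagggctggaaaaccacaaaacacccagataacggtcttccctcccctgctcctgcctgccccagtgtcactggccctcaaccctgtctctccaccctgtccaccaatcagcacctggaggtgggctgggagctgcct
FABP1 (chr2:88128117-88128312, minus strand): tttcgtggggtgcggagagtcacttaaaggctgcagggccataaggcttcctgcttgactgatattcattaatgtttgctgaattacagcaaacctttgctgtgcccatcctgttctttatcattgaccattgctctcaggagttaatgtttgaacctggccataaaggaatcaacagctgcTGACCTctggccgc
ANGPTL4 (chr19:8363905-8364150, plus strand): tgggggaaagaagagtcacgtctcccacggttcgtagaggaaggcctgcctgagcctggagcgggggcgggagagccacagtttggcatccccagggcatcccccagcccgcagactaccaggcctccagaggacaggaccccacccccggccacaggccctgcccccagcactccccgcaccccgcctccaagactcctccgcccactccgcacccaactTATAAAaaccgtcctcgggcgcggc
CPT1A (chr11:68844411-68844527, minus strand): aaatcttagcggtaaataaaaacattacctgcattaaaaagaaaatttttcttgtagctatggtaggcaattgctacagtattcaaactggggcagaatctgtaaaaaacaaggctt
ABCD3 (chr1:94418139-94418388, plus strand): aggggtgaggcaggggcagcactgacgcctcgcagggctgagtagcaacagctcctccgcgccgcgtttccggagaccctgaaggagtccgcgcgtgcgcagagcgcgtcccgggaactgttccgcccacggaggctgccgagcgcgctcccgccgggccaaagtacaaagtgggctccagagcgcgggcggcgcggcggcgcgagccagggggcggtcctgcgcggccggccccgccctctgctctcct
The stretches of CPT1A and ABCD3 contain neither the repeat nor AGGTCA nor TATAAA, which says only that those letters are not in these windows. A listed start need not be the one used in HepG2 cells, and binding was not measured.

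After 360 min of exposure, 5 of the 39 tested genes had risen and 5 had fallen relative to untreated cells. EHHADH, ABCD3, ACAA1, BDH1 and ETFDH rose, by 1.08 to 1.31-fold. CPT1A, PLIN2, ETFB and PPARGC1A fell to between 0.787 and 0.915 of the untreated level, and ANGPTL4 fell to 0.352 of it. A gene was called at an adjusted p under 0.05 in edgeR's quasi-likelihood test with Benjamini-Hochberg adjustment over all 17779 genes. The called share was 25.6% of the 39 genes, beside 18.1% of all tested genes, of which 8.89% were higher and 9.19% lower. Libraries of 360 and 0 min did not overlap for 18 of the 39 genes, among them all 10 called, beside 35.6% of all genes. The absolute log2 fold change had a median of 0.07 over the 39 genes and 0.13 over all genes, and the signed one had a median of 0.01 over the 39.

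Shorter exposures gave no call among the 39 genes. At 10 min the edgeR test called 0, with 2 genes at an unadjusted p under 0.05, where 0.0169% of all genes were called and 10.9% had such a p, and DESeq2 and limma voom called 0 as well. At 30 min it also called 0 of the 39, with 4 genes at an unadjusted p under 0.05, where 0.765% of all genes were called and 9.29% had such a p, while voom called 0 and DESeq2 called 1, PLIN2. The comparisons of the 3 exposure times share the 0 min libraries.

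**Figure D2:**
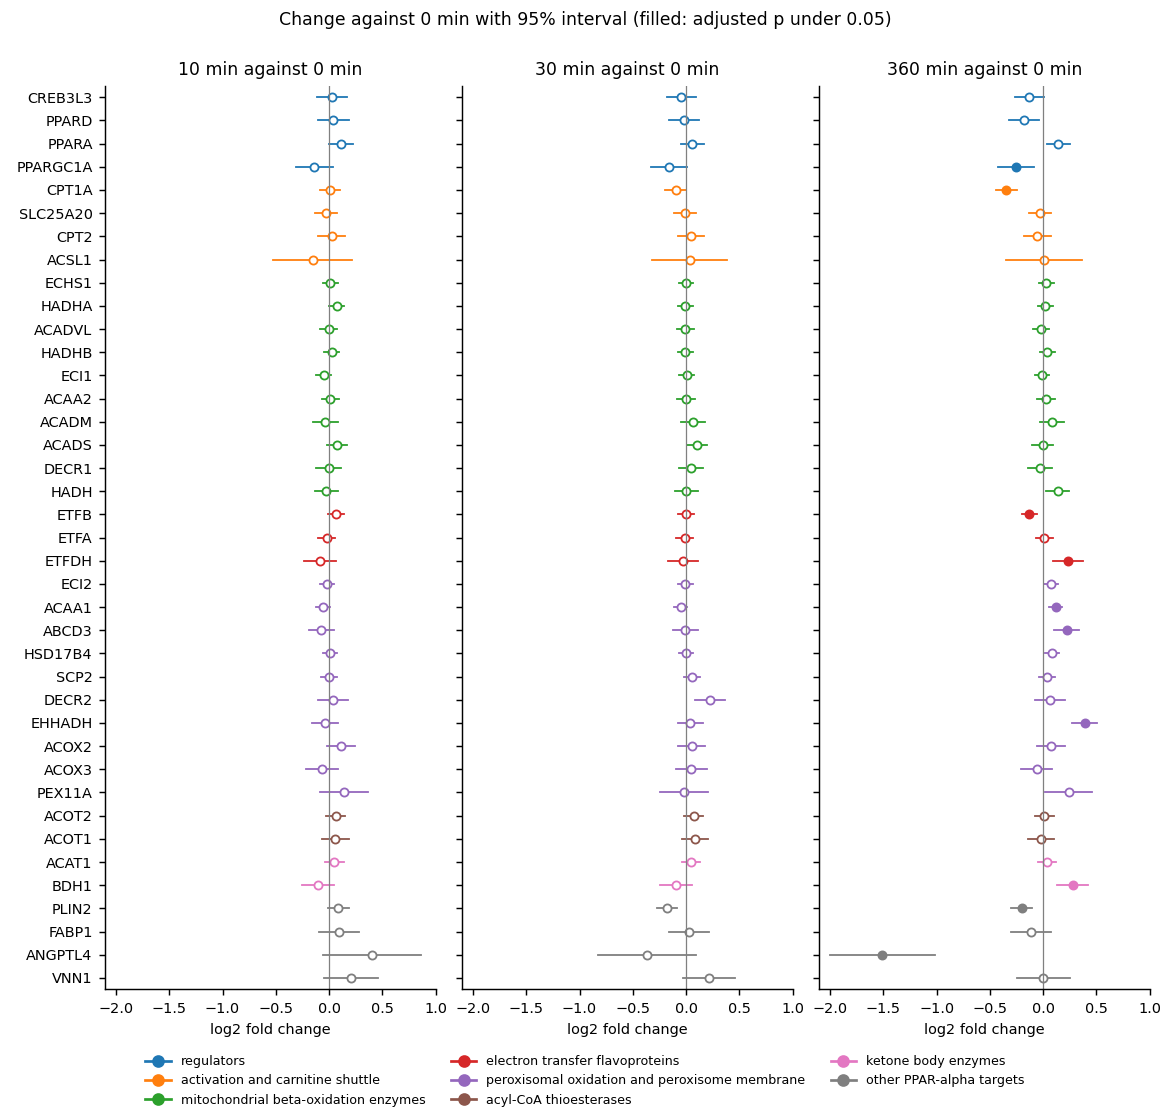
Log2 fold changes of the 39 tested genes at 10, 30 and 360 min against 0 min, with genes down the page by role and bars for 95% intervals; filled points passed edgeR's adjusted threshold. The 10 filled points are in the 360 min panel, where ANGPTL4 at -1.51 lies farthest from 0 and EHHADH at 0.39 is highest.

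Among the 4 regulators, 1 fell and none rose. PPARGC1A, the coactivator that binds PPAR-alpha and drives mitochondrial genes (chr4:23755041-23904089), had 13.1, 12.6 and 13.3 CPM at 0 min, 12.1, 10.5 and 12.8 CPM at 10 min, 12.2, 11.7 and 10.9 CPM at 30 min and 11.3, 11.0 and 10.5 CPM at 360 min. All 360 min libraries lay under all 0 min libraries, and 30 min libraries did too. The mean was 10.9 ± 0.426 CPM at 360 min and 13.02 ± 0.352 CPM at 0 min, a log2 fold change of -0.25 (SE 0.079, adjusted p 0.042). PPARA, the gene of the receptor itself (chr22:46150521-46243756), had 43.4, 45.3 and 44.4 CPM at 0 min, 50.5, 46.9 and 46.6 CPM at 10 min, 48.2, 43.4 and 47.1 CPM at 30 min and 48.3, 46.9 and 51.4 CPM at 360 min. All 360 min and all 10 min libraries were above the 0 min ones, while 30 min overlapped them. PPARA did not pass, with a log2 fold change of 0.14 (SE 0.050, adjusted p 0.069) at 360 min and 0.11 (SE 0.050, adjusted p 0.44) at 10 min. PPARD, the related receptor found in most tissues, averaged 26.7 ± 1.10 CPM at 360 min and 30.3 ± 2.36 CPM at 0 min (log2 fold change -0.18, SE 0.064, adjusted p 0.074). CREB3L3, a transcription factor that acts with PPAR-alpha in fasted mouse liver and the gene with the direct repeat above, averaged 35.3 ± 0.952 CPM at 360 min and 38.6 ± 1.00 CPM at 0 min, also without passing (log2 fold change -0.13, SE 0.063, adjusted p 0.19).

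Of the 4 genes grouped here as activation and carnitine transport, CPT1A was the one called at 360 min. Its call had the smallest adjusted p of the 39. It codes for the enzyme of the outer mitochondrial membrane that makes long-chain acylcarnitines, the controlled step of entry (chr11:68754620-68844410), and had 65.4, 73.6 and 70.6 CPM at 0 min, 73.9, 69.9 and 67.2 CPM at 10 min, 66.3, 64.1 and 65.5 CPM at 30 min and 54.5, 55.6 and 54.9 CPM at 360 min. The 360 min libraries were all lower than any other library, and those of 30 min overlapped those of 0 min. CPT1A averaged 55.0 ± 0.558 CPM at 360 min and 69.8 ± 4.16 CPM at 0 min, a log2 fold change of -0.35 (SE 0.045, adjusted p 0.00020). At 30 min the mean was 65.3 ± 1.11 CPM. SLC25A20, which carries acylcarnitines across the inner membrane, CPT2, which turns them back to acyl-CoA, and ACSL1 did not pass, with log2 fold changes of -0.03, -0.05 and 0.01. Their 95% intervals ran from -0.13 to 0.08, from -0.18 to 0.07 and from -0.35 to 0.36. ACSL1 had 46 to 145 counts per library.

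None of the 10 enzymes of the mitochondrial cycle passed at 360 min. HADHA, the alpha subunit of the trifunctional protein that catalyses the last steps for long chains (chr2:26190635-26244726), had 366, 389 and 386 CPM at 0 min, 408, 393 and 398 CPM at 10 min, 383, 381 and 371 CPM at 30 min and 381, 385 and 391 CPM at 360 min. Libraries of 360 min fell within those of 0 min apart from replicate 3, and the 10 min libraries lay above all 0 min ones. The log2 fold change of HADHA was 0.02 (SE 0.032, adjusted p 0.74) at 360 min and 0.07 (SE 0.032, adjusted p 0.44) at 10 min. HADHB, its beta subunit, lies head to head with it on the other strand of chromosome 2 and had a log2 fold change of 0.04 (SE 0.033, adjusted p 0.50) at 360 min. Over the 10 genes the log2 fold changes ran from -0.03 (DECR1) to 0.13 (HADH), and the 95% intervals from -0.14 to 0.24. HADH, the short-chain hydroxyacyl-CoA dehydrogenase, came nearest to the threshold (log2 fold change 0.13, SE 0.049, adjusted p 0.079), with 59.0 ± 3.43 CPM at 360 min and 53.8 ± 0.973 CPM at 0 min. The medium-chain dehydrogenase ACADM, whose 360 min libraries were all above those of 0 min, had a log2 fold change of 0.08 (SE 0.052, adjusted p 0.34). Exons of RABGGTB on the same strand cover 3.3% of the exon length of ACADM, and RABGGTB averaged 10218.6 counts per library. ACADM had 1885 to 6203 counts per library, and how the counting shared reads between them is not given in the sources used here. Summed over the 10 genes, the level was 1563 to 1602 CPM at 360 min and 1547 to 1576 CPM at 0 min.

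Of the 3 genes of the electron transfer flavoprotein chain, ETFDH rose and ETFB fell at 360 min. ETFDH, the membrane oxidoreductase that passes the electrons on to ubiquinone (chr4:158672125-158709623), had 18.8, 18.6 and 21.4 CPM at 0 min, 18.8, 19.3 and 17.4 CPM at 10 min, 18.6, 19.2 and 19.8 CPM at 30 min and 21.9, 24.4 and 22.9 CPM at 360 min. Its 360 min libraries were above all others, with 0 min replicate 3 the nearest. ETFDH averaged 23.0 ± 1.24 CPM at 360 min and 19.6 ± 1.57 CPM at 0 min, a log2 fold change of 0.23 (SE 0.066, adjusted p 0.028). Exons of PPID on the opposite strand cover 10.9% of its exon length, and since the use of strand is not given in the sources used here, reads of the 2 genes cannot be told apart there. PPID itself averaged 66.1 CPM at 360 min and 61.2 CPM at 0 min, without passing (adjusted p 0.059). ETFB, the beta subunit of the flavoprotein (chr19:51345169-51366418), had 478, 499 and 494 CPM at 0 min, 523, 497 and 520.4 CPM at 10 min, 502, 476 and 492 CPM at 30 min and 457, 437 and 452 CPM at 360 min. Every 360 min library was below every library of the other times. The mean was 449 ± 10.3 CPM at 360 min and 491 ± 10.8 CPM at 0 min, a log2 fold change of -0.13 (SE 0.034, adjusted p 0.021). ETFA, which codes for the alpha subunit, had a log2 fold change of 0.01 (SE 0.037, adjusted p 0.89).

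Of the 10 peroxisomal genes, 3 rose at 360 min and none fell, and 9 had a positive log2 fold change. Of all 17779 tested genes, 8913 had a positive log2 fold change in that comparison. EHHADH, the peroxisomal bifunctional enzyme and a classical PPAR-alpha target (chr3:185190624-185281990), had 35.9, 41.3 and 39.9 CPM at 0 min, 36.5, 38.8 and 38.8 CPM at 10 min, 41.5, 39.2 and 39.7 CPM at 30 min and 50.0, 54.2 and 49.7 CPM at 360 min. The 360 min libraries stood clear of the other 9, which lay between 35.9 and 41.5 CPM. EHHADH averaged 51.3 ± 2.53 CPM at 360 min and 39.1 ± 2.80 CPM at 0 min, a log2 fold change of 0.39 (SE 0.054, adjusted p 0.00034). ABCD3, which carries long and branched acyl-CoAs through the peroxisome membrane (chr1:94418455-94518666), had 182, 194 and 194 CPM at 0 min, 174, 194 and 174 CPM at 10 min, 174, 199 and 193 CPM at 30 min and 217, 219 and 227 CPM at 360 min. All 360 min libraries lay above the rest, while those of 10 and 30 min overlapped the 0 min range. ABCD3 averaged 221 ± 5.23 CPM at 360 min and 189.8 ± 6.63 CPM at 0 min (log2 fold change 0.22, SE 0.053, adjusted p 0.012). With a trend on GC content removed, an alternative added after seeing the data, its log2 fold change was 0.14 (adjusted p 0.027).

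ACAA1, the thiolase that ends the peroxisomal cycle (chr3:38103129-38137242), had 203, 203 and 206 CPM at 0 min, 199, 193 and 196 CPM at 10 min, 201, 193 and 197 CPM at 30 min and 226, 218 and 219 CPM at 360 min. Its 10 and 30 min libraries all lay under those of 0 min and its 360 min libraries all above. The mean was 221 ± 4.16 CPM at 360 min and 204 ± 1.85 CPM at 0 min (log2 fold change 0.12, SE 0.029, adjusted p 0.012). DLEC1 on the opposite strand covers 19.7% of its exon length, and averaged 1.35 CPM at 360 min and 1.61 CPM at 0 min. HSD17B4, the D-bifunctional protein, averaged 249 ± 0.737 CPM at 360 min and 235 ± 2.22 CPM at 0 min (log2 fold change 0.09, SE 0.031, adjusted p 0.074). PEX11A, a membrane protein of peroxisome division, had a log2 fold change of 0.24 (SE 0.10, adjusted p 0.14), and ECI2, an enoyl-CoA isomerase, had a log2 fold change of 0.07 (SE 0.031, adjusted p 0.15). The libraries of these 3 did not overlap between 360 and 0 min, but the genes did not pass in edgeR. HSD17B4 was called at 360 min by limma voom and by DESeq2. ACOX3, an oxidase of branched chains, was the gene with a negative value (log2 fold change -0.06, SE 0.067, adjusted p 0.61), and ACOX2, SCP2 and DECR2 lay between 0.04 and 0.07. Summed over the 10 genes, the level was 1109 to 1117 CPM at 360 min and 1019 to 1027 CPM at 0 min. The largest difference in means among the 10 genes was that of ABCD3.

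**Figure D3:**
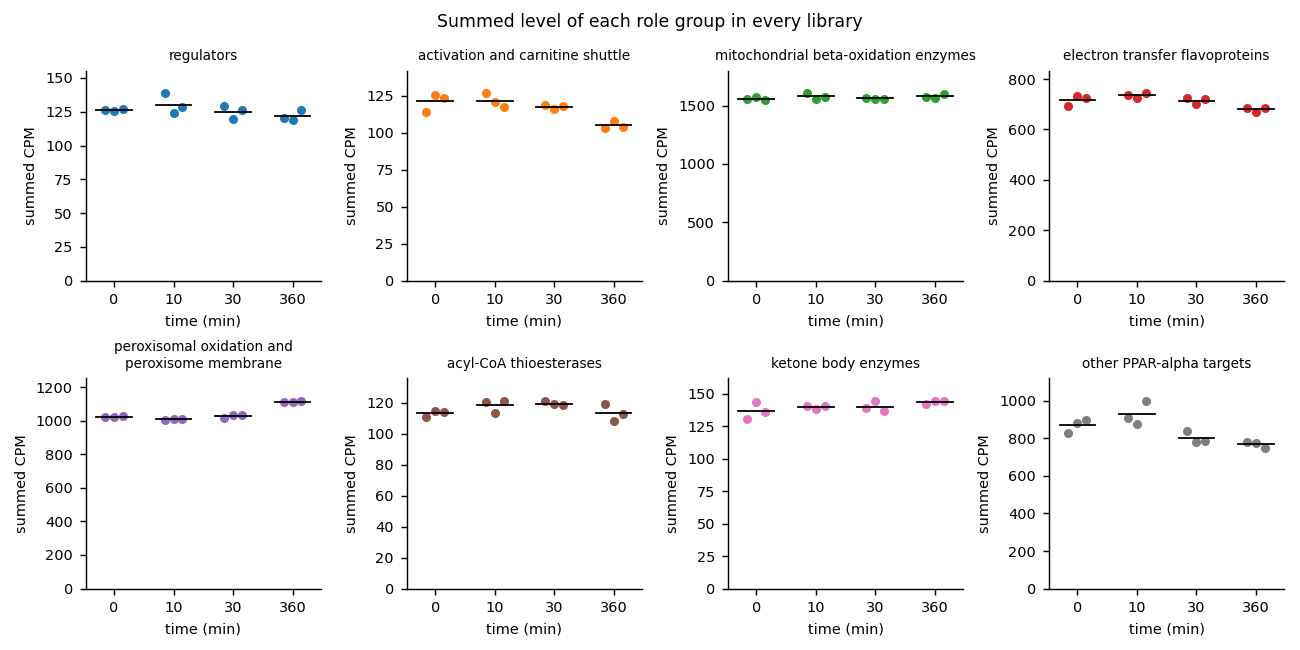
Summed CPM of each role group in every library (points) at 0, 10, 30 and 360 min, with group means as bars and axes from 0. The peroxisomal sum is 1109 to 1117 CPM at 360 min and 1019 to 1027 CPM at 0 min, and the sum for activation and carnitine transport is 103 to 108 CPM at 360 min and 114 to 126 CPM at 0 min.

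Of the ketone body enzymes, BDH1 rose. This dehydrogenase interconverts acetoacetate and beta-hydroxybutyrate (chr3:197509783-197573323), and had 17.7, 16.6 and 15.7 CPM at 0 min, 15.2, 14.9 and 16.4 CPM at 10 min, 16.5, 15.0 and 15.2 CPM at 30 min and 20.2, 18.9 and 21.3 CPM at 360 min. Each 360 min library was above all others. BDH1 averaged 20.1 ± 1.19 CPM at 360 min and 16.7 ± 1.00 CPM at 0 min (log2 fold change 0.28, SE 0.068, adjusted p 0.013). ACAT1, the mitochondrial acetoacetyl-CoA thiolase, did not pass (log2 fold change 0.04, SE 0.039, adjusted p 0.59). The thioesterases ACOT1 and ACOT2, which release free fatty acids from acyl-CoA, had log2 fold changes of -0.02 and 0.01. They are near-identical neighbours on chromosome 14, and how the counting shared reads between them is not given in the sources used here.

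Among the other targets of PPAR-alpha, 2 fell and none rose at 360 min. ANGPTL4, a secreted inhibitor of lipoprotein lipase and a classical PPAR target (chr19:8363289-8374373), had 3.05, 3.00 and 3.04 CPM at 0 min, 4.60, 3.30 and 4.11 CPM at 10 min, 2.68, 2.54 and 1.76 CPM at 30 min and 1.18, 1.36 and 0.701 CPM at 360 min. The order was 10 min highest, then 0 min, 30 min and 360 min, and no library of one time overlapped with another. ANGPTL4 averaged 1.08 ± 0.342 CPM at 360 min and 3.03 ± 0.0285 CPM at 0 min, a log2 fold change of -1.51 (SE 0.23, adjusted p 0.00057), on 44 to 227 counts per library. Its values of 0.40 (SE 0.21, adjusted p 0.51) at 10 min and -0.37 (SE 0.21, adjusted p 0.68) at 30 min did not pass. PLIN2 (chr9:19108375-19149290) had 597, 646 and 658 CPM at 0 min, 670.1, 644 and 705 CPM at 10 min, 568, 554 and 555 CPM at 30 min and 553, 566 and 531 CPM at 360 min. Levels at 30 and 360 min were below all 0 min libraries and overlapped each other. PLIN2 averaged 550.4 ± 17.6 CPM at 360 min and 633 ± 32.4 CPM at 0 min (log2 fold change -0.20, SE 0.044, adjusted p 0.0063), and -0.18 (SE 0.044, adjusted p 0.10) at 30 min did not pass. FABP1 averaged 213 ± 9.27 CPM at 360 min and 231 ± 3.70 CPM at 0 min (log2 fold change -0.12, SE 0.086, adjusted p 0.40), without passing although its libraries did not overlap. VNN1, a pantetheinase induced through PPAR-alpha in mouse liver, had a log2 fold change of 0.0027 (SE 0.12, adjusted p 0.99).

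**Figure D4:**
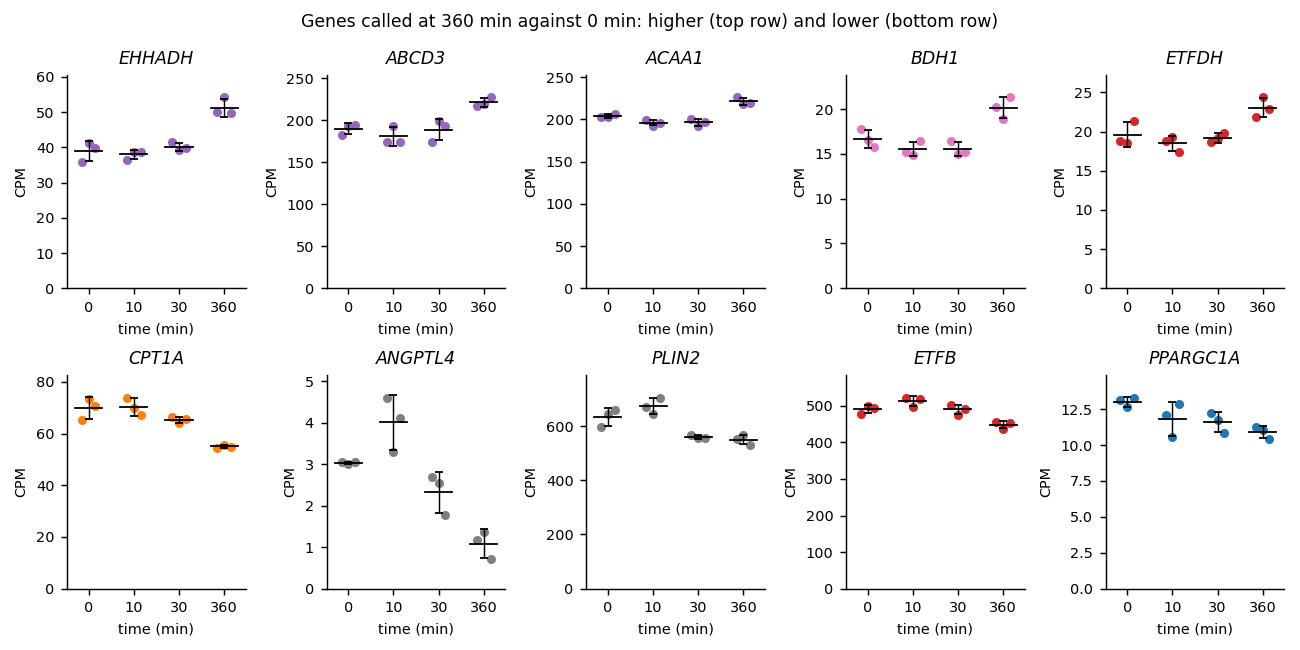
CPM of the 10 genes called at 360 min against 0 min in each of the 12 libraries (points), by time, with horizontal bars for group means, error bars for the SD and axes from 0. In each panel the 360 min points lie on one side of the 0 min points, for example 49.7 to 54.2 CPM at 360 min and 35.9 to 41.3 CPM at 0 min for EHHADH.

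Consecutive times were compared to place the changes. Between 10 and 30 min the test called 1 of the 39 genes, PLIN2, lower at 30 min with 559 ± 7.97 CPM at 30 min and 673 ± 30.3 CPM at 10 min (log2 fold change -0.27, SE 0.044, adjusted p 0.017), where 0.574% of all genes were called and 0.411% were lower. Between 30 and 360 min it called 8 of the 39, 5 higher and 3 lower, where 22.7% of all genes were called, 11.4% higher and 11.3% lower. The 5 higher at 360 min were EHHADH, ABCD3, ACAA1, BDH1 and ETFDH, and the 3 lower were CPT1A, ANGPTL4 and ETFB. These 8 are among the 10 called against 0 min, and both comparisons use the 360 min libraries. PLIN2 and PPARGC1A, the 2 others, had log2 fold changes of -0.02 (SE 0.044, adjusted p 0.76) and -0.09 (SE 0.078, adjusted p 0.46) from 30 to 360 min. DECR2, a peroxisomal dienoyl-CoA reductase, averaged 44.3 ± 2.38 CPM at 30 min and 38.0 ± 3.05 CPM at 0 min but did not pass (log2 fold change 0.22, SE 0.065, adjusted p 0.22). Exons of NME4 on the same strand cover 14.1% of the exon length of DECR2, and NME4 averaged 4597.7 counts per library. How the counting shared reads between these 2 genes is not given in the sources used here.

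Omitting single libraries ended some of the calls at 360 min. CPT1A, ANGPTL4, EHHADH and PLIN2 stayed called whichever library of the 2 groups was left out. ABCD3 was lost without 0 min replicate 1 (adjusted p 0.0531) and ACAA1 without 360 min replicate 1 (adjusted p 0.0595). BDH1 was lost without 0 min replicate 3 (adjusted p 0.0569) and without 360 min replicate 3 (adjusted p 0.0593). For ETFB these were 0 min replicates 2 and 3 (adjusted p 0.0761 and 0.0648) and 360 min replicate 2 (adjusted p 0.0897). ETFDH was lost without 0 min replicates 1 or 2 (adjusted p 0.0943 and 0.112) and without 360 min replicates 2 or 3 (adjusted p 0.109 and 0.0697). PPARGC1A was lost without any 1 of the 6 libraries (adjusted p 0.0671 to 0.129). With 0 min replicate 1 as the lone untreated library, whose spread is then assumed to be that of the other groups, CPT1A, ANGPTL4, EHHADH and ABCD3 stayed called. PLIN2 was then lost at a log2 fold change of -0.12 (adjusted p 0.22), and ACAA1, BDH1, ETFDH, ETFB and PPARGC1A were lost as well (adjusted p 0.060 to 0.29). The 360 and 0 min libraries do not overlap for these 10 genes, so leaving libraries out could not turn a direction. PLIN2 in the 30 min against 10 min comparison was lost without 10 min replicate 1 or 3 (adjusted p 0.0756 and 0.0837) and without 30 min replicate 1, 2 or 3 (adjusted p 0.0541, 0.0834 and 0.0724). Between 30 and 360 min, 6 genes were called without 360 min replicate 2 and 6 without 30 min replicate 1, ETFB and ETFDH being lost, and 7 without 30 min replicate 3, ETFB being lost. Log2 ratios were also taken within the libraries of higher mitochondrial share, which are 1 library a group (360 min replicate 3 and 0 min replicate 1), and within those of lower share, with 2 libraries a group. The groups do not overlap for the 10 genes, which fixes the direction on both sides, so the ratios describe sizes and carry no test. EHHADH had log2 ratios of 0.47 and 0.36, CPT1A -0.25 and -0.39, and ANGPTL4 -2.12 and -1.25 on the higher and lower side.

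**Figure D5:**
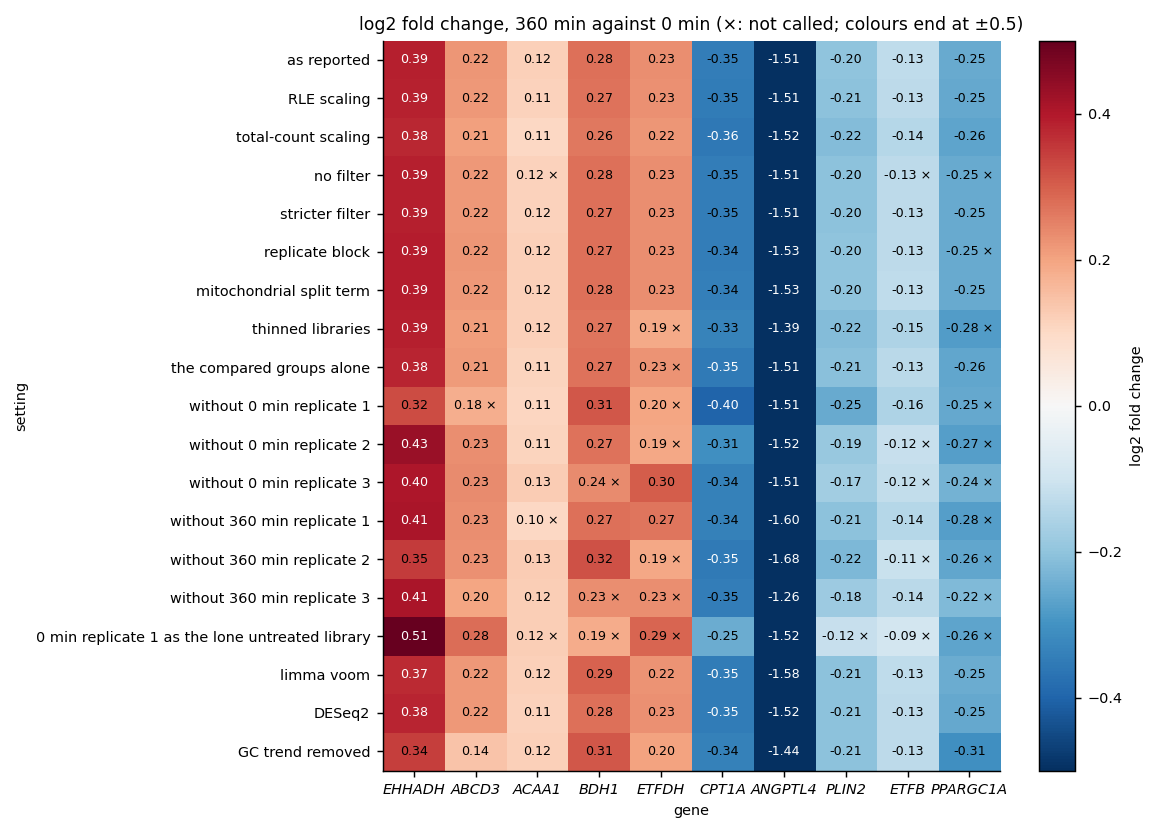
Log2 fold changes at 360 min against 0 min of the 10 called genes (columns) as reported and under 18 alternatives (rows), with colour from blue for lower to red for higher and a cross where the gene was not called. CPT1A, ANGPTL4 and EHHADH carry no cross, while PPARGC1A is called in 8 of the 18.

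A wider set of 80 genes of the same pathways, 67 of them tested, gave 15 calls at 360 min against 0 min, 4 higher and 11 lower, or 22.4%, beside 18.1% of all tested genes, with 8.89% higher and 9.19% lower. The 4 higher were ACAD9, ACADSB, LPIN1 and MED1. ACAD9, a mitochondrial dehydrogenase that also assembles complex I, averaged 47.6 ± 1.08 CPM at 360 min and 38.5 ± 0.321 CPM at 0 min (log2 fold change 0.30, SE 0.037, adjusted p 0.00014). ACADSB, which oxidises short branched acyl-CoAs, averaged 177 ± 1.27 CPM at 360 min and 148 ± 2.52 CPM at 0 min (log2 fold change 0.26, SE 0.036, adjusted p 0.00033). LPIN1, a phosphatidate phosphatase and, in mouse liver, a coactivator of PPAR-alpha, had a log2 fold change of 0.34 (SE 0.068, adjusted p 0.0042), and MED1, the Mediator subunit that contacts nuclear receptors, had a log2 fold change of 0.18 (SE 0.046, adjusted p 0.016).

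Of the 11 that fell, ACSL3, TXNIP and PPARG were among the 4 with the smallest p. ACSL3, the acyl-CoA synthetase of lipid droplets, averaged 169 ± 6.03 CPM at 360 min and 213 ± 5.92 CPM at 0 min (log2 fold change -0.33, SE 0.038, adjusted p 8.8e-05). PPARG, the receptor best known from fat cells, averaged 17.0 ± 0.794 CPM at 360 min and 23.6 ± 1.09 CPM at 0 min (log2 fold change -0.47, SE 0.067, adjusted p 0.00038). TXNIP, an inhibitor of thioredoxin and of glucose uptake, had a log2 fold change of -0.39 (SE 0.049, adjusted p 0.00014), and was the only gene of the 67 called at 10 and at 30 min, when it was higher than at 0 min. Lower too were SLC27A1, SLC27A2 and SLC27A4, which are fatty acid transport proteins, the synthetase ACSL5, the receptor partner RXRA, and PLIN3 and CIDEC, 2 proteins of lipid droplets. The median log2 fold change of the 67 was -0.04.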

How the data were processed

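Per the labels' protocols, trypsin-detached HepG2 cells gave Trizol-extracted RNA, which was selected on poly(dT) beads and reverse transcribed. The authors deposited whole-number read counts per gene for the 12 libraries. The submitters' processing notes name HISAT2, DESeq2 and GRCh38. Which program counted the reads, and whether strand was used, is not given in the sources used here. The deposited counts went unchanged into edgeR 4.0.16 (R 4.3.3): filterByExpr by group, TMM factors (0.981 to 1.014), 1 coefficient per group over all 12 libraries, a biological coefficient of variation of 9.72% and Benjamini-Hochberg adjustment over 17779 genes. P-values are two-sided and adjusted ones come from this test unless another tool is named. SE is the absolute log2 fold change divided by the square root of F. The test was checked on simulated data. Positions, exon lengths and overlaps come from GENCODE release 29 on GRCh38, which held 96.3% of the identifiers.

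The genes and lists were chosen with earlier results of these data known. Values in every library are given for genes called against 0 min (at 360 min at most 6 per direction, by p) and for PPARA, CPT1A and HADHA. Of the wider list, the 4 with the smallest p per direction were to be named; some results are not reported here. DECR2 and other uncalled genes were named after their values were seen. Alternatives were scaling by RLE or by total counts, a stricter filter and none, other thresholds, the compared groups alone, a replicate block, a term for the split by mitochondrial share, thinning, omissions, limma 3.58.1 voom and DESeq2 1.42.0. Removal of a trend on GC content was added after seeing the data.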

Additional observations from a re-analysis of the deposited data

Results flagged for a closer look

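Levels at 2 exposure times differed for 8 of the 39 genes, or 20.5%, by the test of 360 min against 30 min itself. That test called 22.7% of all tested genes, so the share of the 39 lay near that of all genes. It was edgeR's quasi-likelihood fit with Benjamini-Hochberg adjustment. EHHADH was higher at 360 min by 0.35 on the log2 scale (adjusted p 0.00051), BDH1 by 0.37 (adjusted p 0.0016), ETFDH by 0.26 (adjusted p 0.012), ABCD3 by 0.23 (adjusted p 0.0079) and ACAA1 by 0.17 (adjusted p 0.00098). CPT1A had a log2 fold change of -0.25 (adjusted p 0.0017), ANGPTL4 of -1.14 (adjusted p 0.0029) and ETFB of -0.13 (adjusted p 0.017). Between 30 and 10 min, PLIN2 had a log2 fold change of -0.27 (adjusted p 0.017).

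ACAA1 and ANGPTL4 stood out because their libraries lay on opposite sides of all 0 min libraries at 10 min and at 360 min. This was so for 2 of the 39 genes, or 5.13%, and for 716 of all 17779 tested genes, or 4.03%, so the share of the 39 lay near that of all genes. Both were picked for this separation, so their values at 360 min against 10 min are a description and carry no test. ACAA1 had a log2 fold change of 0.18 and ANGPTL4 of -1.91. Neither differed from 0 min past the threshold at 10 min. Groups of 3 libraries were not searched for outlying samples.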

How the results depend on the processing

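Over the alternatives tried, the number of the 39 genes called at 360 min against 0 min ran from 4 to 14. As reported it was 10, where 3215 of all 17779 genes were called. It was 4 at an adjusted p under 0.01, where 1718 were called, and 14 under 0.1, where 4322 were. With single libraries left out it was 7 to 8, where 2327 to 2773 were called. Limma voom called 11, adding HSD17B4, and DESeq2 12, adding HSD17B4 and PPARD, where 3501 and 3444 of all genes were called. The term for the mitochondrial split gave 12, adding HADH and PPARD, where 3422 were called. Removal of the GC trend gave 11, adding ECHS1, where 3345 of 17553 genes were called. At 30 min against 0 min it was 1 with DESeq2, where 271 of all genes were called, beside 136 as reported. It was 0 to 1 over the omissions, where 60 to 168 were called, the call being PLIN2 without 0 min replicate 1. At 30 min against 10 min it was 0 at an adjusted p under 0.01 and 2 with DESeq2. Of all genes, 37 and 290 were then called, beside 102 as reported. Over the omissions it was 0 to 1, where 40 to 87 of all genes were called. At 360 min against 30 min it was 13 at an adjusted p under 0.1, where 5250 of all genes were called, beside 4034 as reported. Over the omissions it was 6 to 8, where 3023 to 3470 of all genes were called. At 10 min it stayed 0 in all 20 alternatives, where 1 to 174 of all genes were called. HADHA at 360 min had log2 fold changes of -0.015 (without 0 min replicate 1) to 0.037 over the omissions, and was never called. For the genes named, 197 of the values kept their direction and side of the threshold, 35 lost the call and 1 turned sign.

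No pairing by replicate number was seen. Deviations from the group means correlated at -0.17 to 0.15 between libraries of the same number, and at -0.20 to 0.22 between libraries of different numbers. Of the 12 libraries, 5 correlated best with their own number. This does not settle whether the cultures were paired. With the replicate number as a block, 9 genes were called at 360 min against 0 min and PPARGC1A was lost (adjusted p 0.052), while the other 4 comparisons kept 0, 0, 1 and 8. Low counts limit ANGPTL4, ACSL1, PEX11A and VNN1 the most. The causes of these differences were not tested.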
